A study of Mus musculus with 8 samples.

Results

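Chromosome 19 holds 4444 of the 160978 regions in the authors' comparison of chromatin accessibility between leukemic and non-leukemic mouse marrow cells with low PU.1, which is 2.76% of the table. Every region that the authors placed on this chromosome was taken. The chromosome, and the stretch from 10.6 to 41.8 Mb that is set against its rest, were chosen from the fold changes and calls of these same data, so both are described here without a test. The regions run from 3.1 to 61.3 Mb of GRCm38 and are 149 to 4824 bp wide. The stretch holds 2186 of them and the rest of the chromosome 2258.

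Accessibility was measured by ATAC-seq, in which a transposase inserts adapters into DNA that is not wrapped in nucleosomes. The cells were bone marrow cells positive for cKit and sorted to be free of lymphoid and erythroid cells, a fraction in which stem and progenitor cells lie. Of 8 libraries, 4 were labelled acute myeloid leukemia (AML): 2 were URE-delta/+;Tet2+/- and 2 were URE-delta/+;Tet2-/-. The other 4 were labelled normal, with 1 each of URE-delta/+;Tet2+/+, URE+/+;Tet2+/-, URE+/+;Tet2-/- and URE+/+;Tet2+/+. The URE is an enhancer upstream of Spi1, the gene of the transcription factor PU.1, and Tet2 encodes an enzyme that oxidises methylated cytosine. Ages and sexes are not given in the labels. The normal libraries URE+/+;Tet2+/- and URE+/+;Tet2-/- carry a lane number that no AML library carries. Any effect of lane was not tested. Every AML library had the URE deletion together with loss of Tet2, which no normal library had, so leukemia and the combined genotype cannot be told apart. The comparison is named for low PU.1, and 1 of the normal libraries carried the URE deletion; the libraries behind its sides are not named in the labels. Only the authors' own fold change and adjusted p per region were used, and no value here has a spread over mice. Where fewer cells of a type and less open chromatin per cell would both lower a fold change, bulk libraries cannot tell them apart.

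Open regions at a gene's start mark its promoter, and those inside or between genes are often enhancers, at which transcription factors bind. In blood cells most of the differences between cell types lie at such distal regions. Among the genes of mouse chromosome 19 are the Ms4a cluster of membrane proteins of B cells, mast cells and myeloid cells, the cytokine signalling kinase gene Jak2 and the stem and B-cell factor gene Hhex. As a check of the labelled sort, Kit itself, on another chromosome, held a region with a log2 abundance of 3.26 within 1 kb of its extent, and the T-cell gene Cd3e reached -0.48 per the authors' deposited table. The median over all regions was -1.17, abundance being the authors' measure of read level averaged over the libraries compared.

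Gained and lost below mean membership of the authors' sets of more and less accessible regions, which equal an adjusted p under 0.001 with the matching sign of the leukemic over non-leukemic fold change. On chromosome 19, 94 regions (2.12%) were gained, against 1.24% of all regions, and 53 (1.19%) were lost, against 1.22% of all regions. The gained share was rank 2 among the 20 chromosomes, and the lost share rank 3. Without chromosome 2, all other chromosomes together had 1.27% gained and 1.03% lost. The gains on chromosome 19 were 4.7% of all gains in the table, and the losses 2.7% of all losses. At the looser adjusted p under 0.05, 484 regions (10.9%) were higher, against 7.98% of all regions, and 360 (8.1%) were lower, against 9.21% of all regions. Since the chromosome was chosen for its calls, these shares describe the choice. The median log2 fold change was 0.13 on chromosome 19, 0.01 on all other chromosomes and 0.06 on these without chromosome 2. By its median, chromosome 19 was rank 5 of the 20 chromosomes.

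Of the 94 gains, 21 lay at gene ends, 59 inside genes and 14 between genes. Of the 53 losses, 7 lay at gene ends, 37 inside genes and 9 between genes. Of all regions of the chromosome, 17.2% lay at gene ends, 55.4% inside genes and 27.4% between genes. The gained shares of these classes were 2.75%, 2.39% and 1.15%, and the lost shares 0.916%, 1.5% and 0.74%. On all other chromosomes the gained shares were 1.17%, 1.31% and 1.09%, and the lost shares 1.44%, 1.19% and 1.15%. Promoter windows (250 bases before to 50 after a transcription start) lay whole inside 9 changed regions. Among these were 4 of protein-coding genes, all gained: Ccdc88b, whose protein is a linker in blood cells, Rbp4, the retinol carrier gene, R3hcc1l and Pyroxd2. Of losses, the 3 such windows all belonged to RefSeq genes of long non-coding RNA. The sequences of the 4 coding windows and of 2 windows in lost regions are shown as examples of transcription starts that lay whole in changed chromatin. The windows of 2410080I02Rik and Gm38597, in gained regions, and of Gm41871, in a lost region, are not shown. They come from RefSeq on GRCm38.p6, read 5′ to 3′ on the strand of the gene, and capitals mark matches to a motif searched for.

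The Ccdc88b window (chr19:6858162-6858461, minus strand) lay in a region gained by 2.27 on the log2 scale (adjusted p = 5.79e-05) per the authors' deposited table. It held 1 PU.1 motif and 1 GATA motif.
Ccdc88b: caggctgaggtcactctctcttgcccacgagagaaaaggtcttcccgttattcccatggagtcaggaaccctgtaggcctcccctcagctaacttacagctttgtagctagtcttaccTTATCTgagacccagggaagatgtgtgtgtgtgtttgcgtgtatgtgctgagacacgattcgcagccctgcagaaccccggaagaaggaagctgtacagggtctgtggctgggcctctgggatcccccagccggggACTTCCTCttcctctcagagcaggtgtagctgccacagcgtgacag

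The Rbp4 window (chr19:38124762-38125061, minus strand) lay in a region gained by 2.03 (adjusted p = 0.000303) per the authors' deposited table and held 1 AP-1 motif.
Rbp4: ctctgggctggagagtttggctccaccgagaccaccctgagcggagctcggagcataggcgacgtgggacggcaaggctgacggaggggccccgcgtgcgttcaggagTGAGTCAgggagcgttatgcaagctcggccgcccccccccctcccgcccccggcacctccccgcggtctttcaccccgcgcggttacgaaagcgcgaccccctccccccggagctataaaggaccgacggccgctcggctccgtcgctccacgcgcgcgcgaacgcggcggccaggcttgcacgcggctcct

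The R3hcc1l window (chr19:42518555-42518854, plus strand) lay in a region gained by 2.70 (adjusted p = 1.96e-05) per the authors' deposited table, and the Pyroxd2 window (chr19:42752726-42753025, minus strand) in a region gained by 1.04 (adjusted p = 0.000425). Neither held a motif searched for.
R3hcc1l: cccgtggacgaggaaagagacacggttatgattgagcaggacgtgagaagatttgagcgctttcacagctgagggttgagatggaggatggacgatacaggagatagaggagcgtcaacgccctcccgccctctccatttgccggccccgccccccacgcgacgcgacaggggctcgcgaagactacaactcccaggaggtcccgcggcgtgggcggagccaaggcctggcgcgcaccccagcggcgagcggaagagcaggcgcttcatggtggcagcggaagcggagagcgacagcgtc
Pyroxd2: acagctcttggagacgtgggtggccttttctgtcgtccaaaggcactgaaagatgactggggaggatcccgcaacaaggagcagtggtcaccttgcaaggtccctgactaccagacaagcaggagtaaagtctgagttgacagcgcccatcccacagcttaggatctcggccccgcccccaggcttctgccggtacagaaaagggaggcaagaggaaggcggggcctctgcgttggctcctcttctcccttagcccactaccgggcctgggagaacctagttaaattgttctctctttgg

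Both windows from lost regions belong to non-coding genes. The Gm46657 window (chr19:56454941-56455240, minus strand) stood at -3.09 (adjusted p = 0.000155) and held 1 RUNX motif, and the Gm33482 window (chr19:40818219-40818518, minus strand) stood at -2.37 (adjusted p = 0.000156) and held none, per the authors' deposited table.
Gm46657: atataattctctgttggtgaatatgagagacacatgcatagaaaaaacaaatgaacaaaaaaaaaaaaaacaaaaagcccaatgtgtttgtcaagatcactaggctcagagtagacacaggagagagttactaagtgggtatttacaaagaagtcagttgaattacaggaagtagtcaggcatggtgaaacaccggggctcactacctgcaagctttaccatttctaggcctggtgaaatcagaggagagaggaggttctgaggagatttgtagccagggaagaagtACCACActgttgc
Gm33482: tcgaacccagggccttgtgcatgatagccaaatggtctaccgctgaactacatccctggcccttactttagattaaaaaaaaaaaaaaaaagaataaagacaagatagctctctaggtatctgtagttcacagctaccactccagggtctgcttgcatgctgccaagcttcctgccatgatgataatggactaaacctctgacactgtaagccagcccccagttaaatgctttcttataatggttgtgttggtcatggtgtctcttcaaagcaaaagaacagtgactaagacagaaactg

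Motifs were searched for on both strands, and no matches overlapped in these windows. Of all 32851 promoter windows in the RefSeq table, 3.2% held the letters GAGGAAGT taken for PU.1. The share was 16.8% for the RUNX letters TGTGGT and 11.2% for the letters AGATAA of GATA factors. For AP-1, searched as TGANTCA, it was 7.81% of the windows, and for C/EBP, searched as TTGCNNCAA, 2.08%. A match is only a match of letters. The 4 coding windows were 56% to 72% G and C, and the 2 non-coding windows 41% and 43%, where the median of the 1044 windows on chromosome 19 was 54.7%. Promoters in part inside gained regions were those of Efemp2, which encodes the matrix protein fibulin-4, at 2.88 (adjusted p = 9.32e-06), the lipase gene Lipn at 2.64 and the shared region of Nt5c2 and Ina at 1.47, per the authors' deposited table.

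In 5 Mb bins along the chromosome, the median log2 fold change was highest at the proximal end and lowest in 2 bins of the stretch. The bin from 0 to 5 Mb had a median of 0.42 over 222 regions, with 5 gains and 0 losses. From 5 to 10 Mb it was 0.36 over 469 regions, with 10 gains and 4 losses. The bin from 10 to 15 Mb, which holds the Ms4a cluster, stood at -0.15, with 7 gains and 5 losses among 409 regions. The lowest median was -0.18, from 30 to 35 Mb, where Sgms1 lies and where 4 of 429 regions were gained and 10 lost. All other bins had medians between -0.02 and 0.24. Off chromosome 19, the 486 bins with at least 50 regions had medians from -1.12 to 0.72, with the lowest 5% under -0.60 and the highest 5% over 0.38.

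Gains were most frequent from 20 to 25 Mb, where 18 of 348 regions (5.17%) were gained and 4 lost. None of the 486 bins on other chromosomes reached that share; their highest was 4.83%, and the bin was singled out after its values were seen. It holds Trpm3, a cation channel gene, Klf9, a zinc finger factor gene, and Pip5k1b, which encodes a kinase that makes the lipid PIP2. The next bin, from 25 to 30 Mb, had 11 gains and 0 losses among 332 regions, at Glis3, Dmrt1, Rcl1 and others. Losses were most frequent from 40 to 45 Mb, with 13 of 496 regions (2.62%), a share that 35 of the other bins reached; this bin holds Entpd1, Dntt and Pik3ap1.

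**Figure D1:**
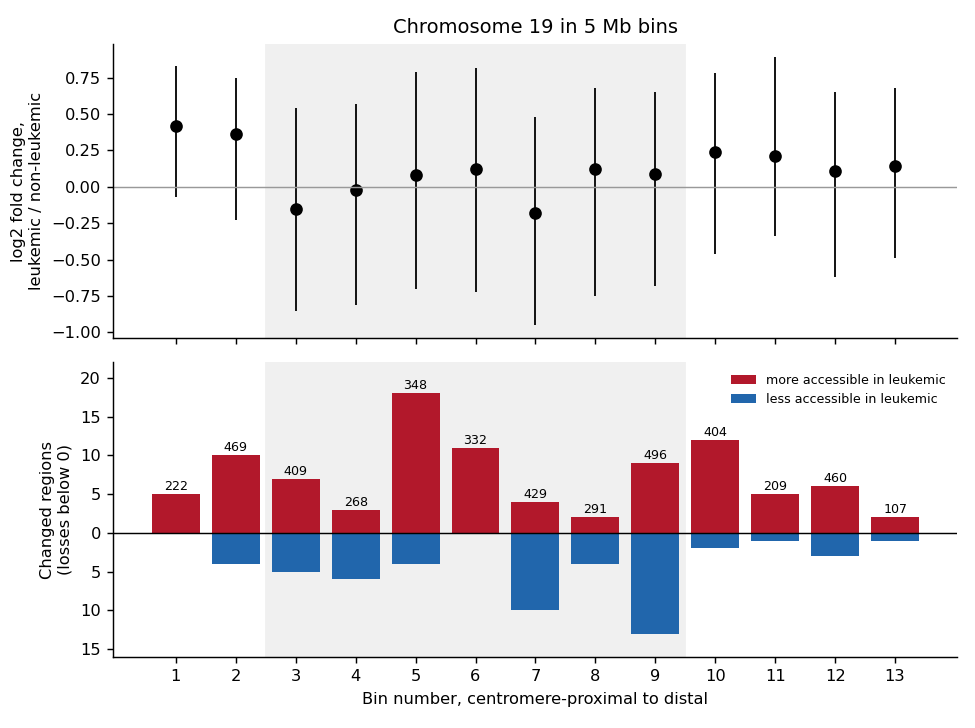
Chromosome 19 in 13 bins of 5 Mb, numbered from the proximal end, with bins that overlap the stretch from 10.6 to 41.8 Mb shaded. The upper panel plots the median log2 fold change (point) with its quartiles (line); the lower panel counts gained regions above 0 and lost regions below it, with the number of regions printed over each bar. Bin 5 has the most gains, 18, and bin 9 the most losses, 13.

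Within the stretch the median log2 fold change was -0.06, with quartiles of -0.85 and 0.60, and outside it 0.27, with quartiles of -0.38 and 0.77. The stretch held 41 gains (1.88%) and 39 losses (1.78%), the rest of the chromosome 53 gains (2.35%) and 14 losses (0.62%). The bounds were drawn on values of this comparison. The rest is made of 2 flanks. Proximal to the stretch, 776 regions had a median of 0.40, with 19 gains and 4 losses; distal to it, 1482 regions had a median of 0.19, with 34 gains and 10 losses. With the threshold at 0.0001, the stretch kept 13 of its gains and 8 of its losses, and the rest of the chromosome 23 and 0.

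The edges of the stretch were not sharp at single regions. Before 10.6 Mb the nearest regions, at Cyb561a3 and Tkfc, stood at 0.29 and 0.68, and the nearest after it, at Tkfc and Ddb1, at 1.31 and 0.58, per the authors' deposited table. Over 0.5 Mb the median was -0.16 after that bound and 0.66 before it. At 41.8 Mb, inside or near Arhgap19, the last regions within the stretch stood at -0.07 and 1.05, and the first beyond it at 0.33 and 0.79, per the authors' deposited table. Over 0.5 Mb the median was -0.10 within the stretch and 0.34 beyond it.

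Losses in the stretch gathered at few genes. Sgms1, Entpd1 and Pik3ap1 had 16 of the 53 losses of the chromosome (30.2%) at 109 regions. These genes were picked for their losses, so leaving them out had to lower the lost share. Pik3ap1 had 2 losses, as had Ccdc86, Gcnt1 and Gm32027, which were kept. Without the picked genes, 23 of 2077 regions of the stretch (1.11%) were lost, and its median was -0.03. The same was not done for gains or for the rest of the chromosome. Read level also differed: the median log2 abundance was -1.17 in the stretch and -0.49 outside it, and 13.1% of regions in the stretch, against 21.2% outside it, were at gene ends. The contrast was largest among regions of high read level. With all regions of the table split by abundance into 5 classes of equal size, the median in class 4 was -0.21 in the stretch and 0.56 outside it, and in class 1, the lowest, 0.00 in the stretch and 0.18 outside it. At gene ends the medians were 0.12 in the stretch and 0.38 outside it. The part of read level in the contrast was not tested.

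**Figure D2:**
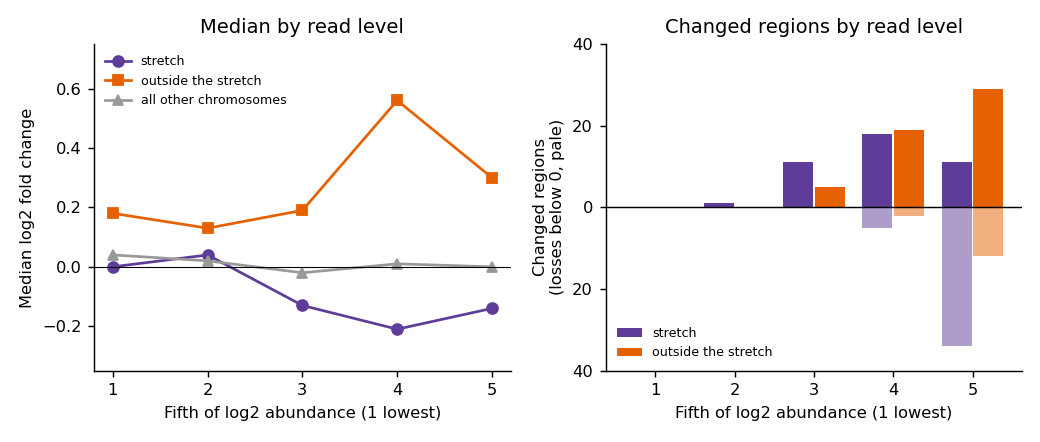
Median log2 fold change (left) and number of gained (above 0) and lost regions (below 0, pale) (right) by class of log2 abundance, 5 classes of equal size set over all regions of the table, from the lowest to the highest. The stretch lies below the rest of chromosome 19 in each of the 5 classes. Of its 39 losses, 34 are in the highest class, as are 1648 of the 1908 losses on all other chromosomes.

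Across the chromosome, losses were wider and more abundant than gains. The median width was 390 bp for gained regions and 558 bp for lost regions, and the median log2 abundance 0.16 and 1.34. The highest class of abundance held 40 gains and 46 losses, and the 3 lowest classes together 17 gains and 0 losses. This was not particular to the chromosome: on all other chromosomes the highest class held 792 of 1908 gains and 1648 of 1908 losses. Changed regions near each other mostly shared a direction: of 33 neighbouring pairs of changed regions within 20 kb, 30 had the same sign, 19 of them gains. The longest run of gains without a loss between them was 13 regions from 25.5 to 30.1 Mb, at genes that include the testis factor gene Dmrt1 and the glycine cleavage gene Gldc. Regions that were neither gained nor lost were passed over, and this span held 285 regions in all, with a median of 0.14. A run of 10 losses without a gain went from 40.6 to 41.8 Mb, and one of 9 lay wholly in Sgms1. The spans of these 2 runs held 141 and 35 regions in all, with medians of -0.36 and -1.36.

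Sgms1 encodes sphingomyelin synthase 1, which makes sphingomyelin from ceramide in the Golgi. RefSeq gives it 4 starts, and distances are from the outermost. It had the most changed regions on the chromosome: 9 of 57 were lost and 0 gained, and 45 of the 57 stood below 0, with a median of -0.87. The region at its outermost transcription start (chr19:32386456-32389866) stood at 0.73 (adjusted p = 0.142) per the authors' deposited table. All 9 losses were inside the gene, 58.2 to 215.9 kb downstream of that start. Of 8 regions in a span of 21.0 kb, 6 were lost, with a median over the 8 of -2.83. The other 49 regions had a median of -0.65. This span was picked for its losses, so its lower median follows from the choice. The lowest value on the chromosome was in this span, at chr19:32257951-32259349, 129.9 kb from the start, at -4.59 (adjusted p = 9.32e-06) per the authors' deposited table. The lost regions beside it at 128.5, 131.5, 133.7 and 138.9 kb stood at -2.58, -3.01, -3.24 and -3.59 per the authors' deposited table. Among them, a region at 135.4 kb that was not lost stood at -0.96 (adjusted p = 0.267) per the authors' deposited table. Not every region in the gene was low: one at 68.3 kb stood at 1.59 (adjusted p = 0.00328) and one at 166.4 kb at 1.36 (adjusted p = 0.013) per the authors' deposited table. An inner start of the gene lay in a region 177.7 kb downstream that stood at -0.74 (adjusted p = 0.0458) per the authors' deposited table. The neighbouring ceramidase gene Asah2 had 0 changed regions, with its lowest adjusted p, 0.0019, at a region at -1.99 per the authors' deposited table.

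Entpd1 encodes CD39, an enzyme of the cell surface that breaks down extracellular ATP and ADP. Of its 21 regions, 5 were lost and 0 gained, and the median was -1.33, the lowest of the 32 genes on the chromosome with at least 20 regions. The 3 deepest losses lay side by side over 2.4 kb, 25.2 to 27.6 kb downstream of the outermost start, at -4.39 (adjusted p = 6.41e-06), -3.43 and -3.61 per the authors' deposited table. The other losses were at 66.8 and 81.1 kb, at -2.86 and -2.54 per the authors' deposited table. Entpd1 has 2 starts in RefSeq. The regions nearest to the outermost start, at 3.8 and 9.4 kb, stood at 0.84 and 0.45 with adjusted p of 0.149 and 0.473 per the authors' deposited table. The inner start lay in a region at 47.9 kb that stood at -1.15 (adjusted p = 0.0429) per the authors' deposited table.

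Pik3ap1 encodes BCAP, an adaptor that links receptors of B cells and myeloid cells to PI3 kinase. A region 18.1 kb downstream of its start stood at -3.61 (adjusted p = 0.00015), and one 17.6 kb upstream at -2.38 (adjusted p = 0.000743), per the authors' deposited table. These 2 losses were among 31 regions with a median of -0.08. At an adjusted p under 0.05, 10 of the 31 were lower and 1 higher. Between Entpd1 and Pik3ap1, Dntt, the gene of the polymerase TdT that adds bases at antigen receptor joints, had a loss at -2.77 (adjusted p = 0.000456) per the authors' deposited table. Blnk, the B-cell linker gene beside them, had none; its lowest adjusted p, 0.0122, was at a region at -1.97 per the authors' deposited table.

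**Figure D3:**
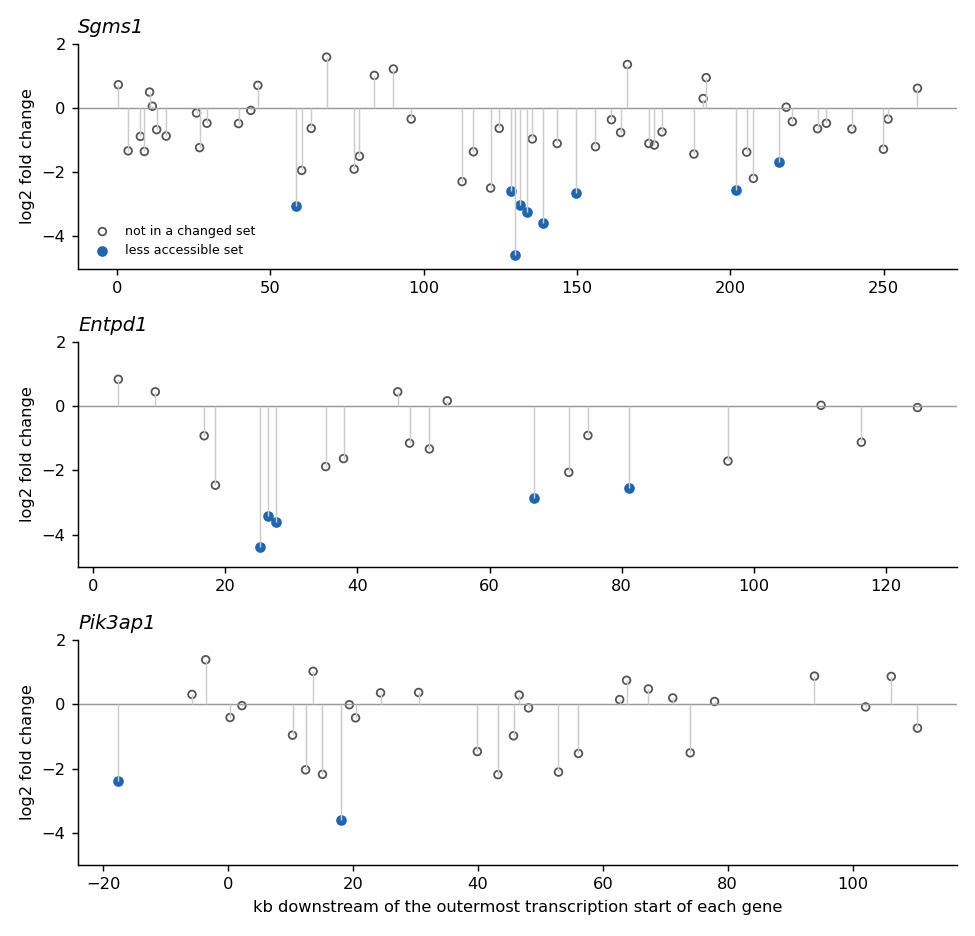
Log2 fold change of every region assigned to Sgms1, Entpd1 and Pik3ap1 against its distance in kb downstream of the outermost RefSeq transcription start. Filled points are lost regions. The deepest losses of Sgms1 and Entpd1 lie together inside the genes, and the regions nearest to the outermost starts stand at 0.73 for Sgms1 and 0.84 for Entpd1, while regions that hold an inner start stand at -0.74 for Sgms1 and -1.15 for Entpd1.

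Other genes with at least 2 losses were Ccdc86, which encodes a nucleolar protein, Gcnt1, which encodes an enzyme that branches O-glycans such as selectin ligands, and the non-coding Gm32027 and 4930552P12Rik. Ccdc86 had 2 of 3 regions lost, at -3.00 and -2.02 per the authors' deposited table. Gcnt1 had 2 of 21, at -2.50 and -2.40 per the authors' deposited table, and a median of -0.58. Gm32027 had 2 of 11 and 4930552P12Rik 2 of 9, with medians of -0.85 and -1.43. All but 4930552P12Rik lay in the stretch. Among single losses, Pank1, a gene of coenzyme A synthesis, stood at -3.24 (adjusted p = 0.000322) and the lysosome-related organelle gene Bloc1s2 at -3.51 (adjusted p = 0.000318) per the authors' deposited table. Sufu, an inhibitor of Hedgehog signalling, stood at -2.40 (adjusted p = 0.000149) and Smc5, a gene of the SMC5/6 DNA repair complex, at -2.34 (adjusted p = 0.000864) per the authors' deposited table.

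Gains were spread over more genes. Of 881 genes to which a region was nearest, 73 had at least 1 gain, 36 at least 1 loss and 5 both, among them Dock8, Exoc6, Gnaq and Prune2. At least 2 gains were found at 16 genes, with 37 of the 94 gains, and at least 2 losses at 7 genes, with 24 of the 53 losses. Of the 16 genes, 7 lay in the stretch: C330002G04Rik, Dmrt1, Dtx4, Gldc, Glis3, Pip5k1b and Trpm3.

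Dagla, which encodes diacylglycerol lipase alpha, an enzyme of endocannabinoid synthesis, had the most gains. Of its 13 regions 4 were gained, at 2.19, 2.80 (adjusted p = 6.29e-06), 2.26 and 1.81 per the authors' deposited table, and 9 were higher at an adjusted p under 0.05. Its median was 1.53. Trpm3 had 3 gains among 21 regions, at 2.77, 2.61 and 2.72 per the authors' deposited table, and a median of 0.25. The non-coding gene C330002G04Rik, whose extent overlaps that of Trpm3, had 3 among 7. Pip5k1b had 3 among 33, from 2.11 to 3.16 per the authors' deposited table, with a median of 0.98; 25 of its 33 regions stood above 0. The guanine deaminase gene Gda had 1 gain, at 1.83 per the authors' deposited table, but 13 of its 27 regions were higher at an adjusted p under 0.05, and its median was 0.99, the highest among genes with at least 20 regions.

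The highest fold change of the chromosome was inside Pola2, which encodes a subunit of the DNA polymerase alpha-primase complex that starts new DNA strands. Its 2 gains, at chr19:5952016-5952382 and chr19:5955453-5955617, stood at 3.67 (adjusted p = 0.000466) and 2.99 (adjusted p = 0.000745) per the authors' deposited table. The heat shock protein 70 family gene Hspa12a had 2 gains among 16 regions, at 2.83 and 3.01 per the authors' deposited table, with 15 of the 16 above 0. Mxi1, which encodes an antagonist of MYC, had 2, at 2.78 and 2.26, and Glis3, a zinc finger factor gene, 2, at 2.56 and 2.66, per the authors' deposited table. Dtx4, a gene of a ubiquitin ligase in Notch signalling, had 2, at 2.23 and 1.91 per the authors' deposited table. Ccdc88b had a gain 18.7 kb from the gene besides the promoter shown above, at 2.16 (adjusted p = 0.000585) per the authors' deposited table. The magnesium homeostasis gene Cnnm2, Mfsd13a, the cytochrome P450 gene Cyp2c23, Dmrt1, Gldc and the receptor gene Prlhr had 2 gains each.

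**Figure D4:**
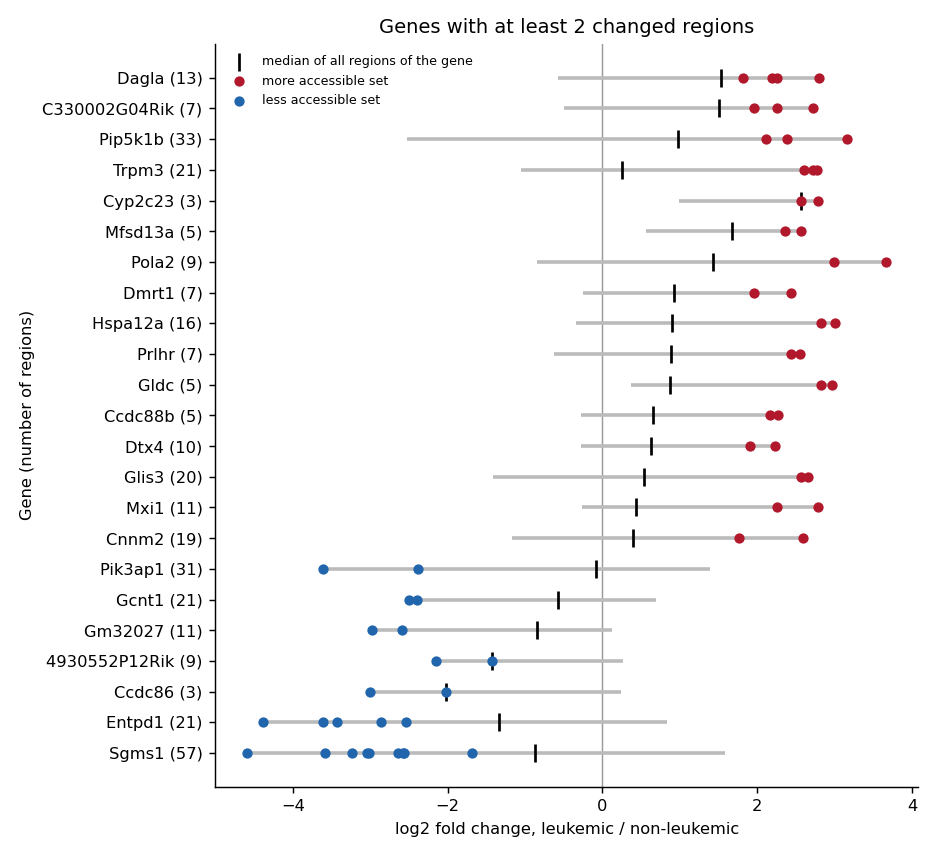
Log2 fold change at the 23 genes with at least 2 gained or at least 2 lost regions. The grey line spans all regions of the gene, whose number is in brackets, the black tick is their median, and filled points are gained or lost regions. The lost regions of Sgms1 reach -4.59 and the gained regions of Pola2 reach 3.67.

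A microRNA gene lay beside one of the strongest gains. MicroRNAs are short RNAs that lower the output of messenger RNAs matching their seed (bases 2 to 8), and miR-146b is known to dampen NF-kB signalling in myeloid cells. The region chr19:46341948-46342115, 0.784 kb upstream of the centre of the Mir146b hairpin, stood at 3.16 (adjusted p = 5.73e-06) per the authors' deposited table. The other 4 regions within 10 kb of the hairpin had values of 0.73, -0.63, 0.42 and 1.14 per the authors' deposited table and were neither gained nor lost. Of 37 microRNA hairpins on chromosome 19, 32 had a region within 10 kb, and Mir146b was the 1 with a changed region that near. Farther off, Mir101b had gains at 22.4 and 32.8 kb, of 3.16 and 2.23, and Mir107, whose hairpin lies within Pank1, a loss at 23.9 kb of -3.24, per the authors' deposited table. The mature miR-146b sequences are shown with the seed in capitals, from RefSeq on GRCm38.p6, plus strand.
miR-146b-5p: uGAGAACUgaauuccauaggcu
miR-146b-3p: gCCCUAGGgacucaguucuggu

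Lists of chromosome 19 genes by role held 102 genes with a region. At their 792 regions, 15 (1.89%) were gained and 19 (2.4%) lost, 14 of the losses at Sgms1 and Entpd1. The shares over all regions of the table were 1.24% gained and 1.22% lost, and over chromosome 19 they were 2.12% and 1.19%. Listed transcription and chromatin factor genes had 5 gains and 0 losses among 141 regions, with 2 gains at Mxi1, 2 at Glis3 and 1 at Klf9. At an adjusted p under 0.05, 24 (17%) were higher and 7 (4.96%) lower. Of these 24, 7 were at Glis3, 6 at Klf9 and 3 at Mxi1. All regions of the table then had 7.98% higher and 9.21% lower, and chromosome 19 had 10.9% and 8.1%. Klf9 stood at 2.06 (adjusted p = 0.000309) per the authors' deposited table. Hhex, needed for early blood and B-cell development, and Ldb1, the bridging partner of LMO2 complexes, had no changed region, and the lowest adjusted p were 0.0743 at -0.96 and 0.0475 at 1.17 per the authors' deposited table.

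B-cell genes had 0 gains and 3 losses among 50 regions, at Pik3ap1 and Dntt, with a median of -0.41. At an adjusted p under 0.05, 18 of the 50 (36%) were lower and 1 (2%) higher, beside 9.21% lower and 7.98% higher over all regions. The Ms4a family, among them Ms4a1 (CD20 of B cells), Ms4a2 (a chain of the IgE receptor of mast cells and basophils) and Ms4a3 of granulocyte and monocyte progenitors, had 0 changed regions among 64, with a median of -0.59. At an adjusted p under 0.05, 13 of the 64 (20.3%) were lower, beside 9.21% over all regions, and 1 (1.56%) was higher, beside 7.98%, with Ms4a2 at -2.39 (adjusted p = 0.00542) and Ms4a3 at -1.79 (adjusted p = 0.0056) per the authors' deposited table. T and NK cell genes, Cd5, Cd6, Ctsw and Ptprcap, had 0 changed regions among 19 and a median of -0.54. Of the 19, 3 (15.8%) were lower and 0 higher at an adjusted p under 0.05. Monocyte and macrophage genes had 1 loss and 0 gains among 55 regions, with a median of -0.65. That loss was at Slc15a3, a histidine and peptide transporter gene of endolysosomes, at -1.60 (adjusted p = 4.86e-05) per the authors' deposited table; it was also the 1 change among 32 regions of interferon-induced genes. At an adjusted p under 0.05, 12 of the 55 (21.8%) were lower and 3 (5.45%) higher, beside 9.21% lower and 7.98% higher over all regions. Unc93b1, which carries nucleic acid-sensing Toll-like receptors to endosomes, had a region at 2.34 (adjusted p = 0.00116) per the authors' deposited table. Macrophage gene Mpeg1 stood at -1.53 (adjusted p = 0.0193) per the authors' deposited table, and Csf2ra, the GM-CSF receptor alpha gene, at -0.96 (adjusted p = 0.211), each at the region of its lowest adjusted p. The B-cell, T-cell and mast cell genes mark cells that the sort or gate could hold in small numbers, and their part in the fold changes beside them was not tested.

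Leukemia and growth signalling genes had 4 gains and 3 losses among 174 regions. The gains were at Dusp5, an ERK phosphatase gene, at 2.62 (adjusted p = 1.57e-05), Gnaq at 2.33, the nucleotidase gene Nt5c2 at 2.22 and the RAS-RAF scaffold gene Shoc2 at 1.86, per the authors' deposited table. The losses were at Pik3ap1 and Gnaq. At an adjusted p under 0.05, 18 of the 174 (10.3%) were higher and 18 (10.3%) lower, beside 7.98% and 9.21% over all regions. Jak2 had 7 regions from -1.45 to 0.68, with 0 changed, and the checkpoint ligand gene Cd274 beside it had a region at 1.62 (adjusted p = 0.0012) per the authors' deposited table, above the threshold of 0.001. NF-kB genes and cell death genes, Fas and Bad among them, had 0 changed regions among 25 and 32. At an adjusted p under 0.05, 8% of the NF-kB regions were higher and 8% lower, and 6.25% and 6.25% of the cell death regions.

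Genes of fatty acid and cholesterol metabolism had 2 gains and 0 losses among 104 regions. They were at Scd1, the stearoyl-CoA desaturase gene, at 2.34 (adjusted p = 9.06e-05), and at Cpt1a, which encodes the enzyme that admits fatty acids to mitochondria, at 1.99 (adjusted p = 0.00043), per the authors' deposited table. At an adjusted p under 0.05, 12 of the 104 (11.5%) were higher and 8 (7.69%) lower, beside 7.98% and 9.21% over all regions. Wnt pathway genes had 1 gain among 67 regions, at the co-receptor gene Lrp5, at 2.32 (adjusted p = 0.000811) per the authors' deposited table. Of the 67, 8 (11.9%) were higher and 6 (8.96%) lower at that looser threshold. Lrp5 held 6 of the 8 higher regions, and Tcf7l2 held 4 of the 6 lower. Retinoid genes had the Rbp4 gain alone among 19. Cell division genes had the 2 Pola2 gains among 35, with a median of 0.57. Of the 35, 7 (20%) were higher and 1 (2.86%) lower at an adjusted p under 0.05, beside 7.98% and 9.21% over all regions. All 7 higher regions were at Pola2, with 5, and Kif11, with 2. Kif11, a motor gene of the mitotic spindle, had its lowest adjusted p, 0.0012, at a region at 1.75 per the authors' deposited table. Housekeeping and nuclear RNA genes had 0 changed regions among 27 and a median of 0.43, and 7 of the 27 (25.9%) were higher and 2 (7.41%) lower at an adjusted p under 0.05, beside 7.98% and 9.21% over all regions. Neat1, a nuclear non-coding RNA gene, had its lowest adjusted p, 0.00599, at a region at -1.71 per the authors' deposited table.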

How the data were processed

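ATAC-seq reads were processed against GRCm38 (mm10), and Bowtie2 2.4.1, SAMtools 1.10.2 and Genrich 0.6 are named, per the submitters' processing notes. The deposited comparison is titled as csaw output. Its normalization, filters, any shift for the transposase, the libraries on each side and depth per library were not given in the sources used here. Used as they stand were the authors' deposited log2 fold change and log2 abundance per region, with the authors' deposited p-value and adjusted p-value; the latter equals a Benjamini-Hochberg adjustment over all 160978 regions to within 2.39e-15. The meaning of these columns was read from their position and range. Starts are printed as deposited, whether counted from 0 or 1. No values per library were used, so no test was made across mice, and depth and its precision are unknown.

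Each region centre was given to the nearest gene extent within 100 kb in RefSeq's gene table for GRCm38.p6 (1374 genes on chromosome 19), which assigned 4429 regions (99.7%); inside several genes, a coding gene and then the shortest was taken. A centre at most 1 kb from an end of a gene counted as a gene end. Without exons in that table, introns and untranslated parts were not separated. Named genes were those with at least 2 regions changed the same way, those of the 10 highest and 10 lowest changed regions, the gene or genes with most changed regions in a bin, and listed genes; the genes with at least 20 regions and Mir146b were chosen after their values were seen, as were Sufu, Smc5, Efemp2, Lipn, Ina, Kmt5b, Stx3, Jak2, Cd274, Hhex, Ldb1, Mpeg1, Csf2ra and Ms4a1. Some genes are not reported here. The members and lists were chosen with earlier results of these data known. Gene assignment, location classes and motif search were tested on simulated data. Python 3.11.15, pandas 2.3.3, numpy 2.4.6 and matplotlib 3.10.9 were used.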

Additional observations from a re-analysis of the deposited data

How the results depend on the processing

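No paired analysis was possible because the table holds comparisons and not libraries, and no library could be left out. At an adjusted p under 0.0001 the chromosome had 36 gains and 8 losses, with 13 and 8 in the stretch and 23 and 0 outside it. At 0.05 it had 484 and 360, with 187 and 229 in the stretch, where losses then exceeded gains, and 297 and 131 outside it. Regions with a log2 abundance of at least 0 left 52 gains, 17 in the stretch and 35 outside it, and 51 losses. Regions at least 300 bp wide left 56 gains, 21 in the stretch and 35 outside it, and 9 losses outside it. Bounds narrowed by 1 Mb put 22 losses outside. The median over the chromosome was 0.08 away from gene ends and 0.31 at gene ends. The other 25 of 47 alternative values moved less, counts by at most 1.5 times, and 0 changed sign; the stretch minus its rest ranged from -0.45 to -0.25 around -0.34. The cause of these shifts was not tested. Unknown depth limits every fold change.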

Other observations

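Finer windows of 1 Mb, chosen after the data were seen, show where the bins are mixed. Over the Ms4a genes, from 11 to 12 Mb, the log2 fold changes of 131 regions had -0.47 as their median, with 0 gains and 1 loss, at Stx3, a gene of vesicle fusion. From 32 to 33 Mb, where Sgms1 lies, 153 regions had a median of -0.47 with 1 gain and 9 losses. From 3 to 4 Mb, with Cpt1a, Lrp5 and the histone methyltransferase gene Kmt5b, the median was 0.53 with 4 gains and 0 losses. From 5 to 6 Mb, with Pola2 and Efemp2, 145 regions had a median of 0.51 with 7 gains and 1 loss. Tcf7l2, a Wnt effector gene, had 25 regions with a median of -0.53 and 0 changed, while the non-coding gene 4930552P12Rik, whose extent ends below that of Tcf7l2, had 2 losses among 9.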
